A study of Mus musculus with 22 samples.

Results

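RNA polymerase II (PolII) was mapped by chromatin immunoprecipitation and sequencing in the mouse erythroid precursor line G1E-ER4, which has no active GATA1, and the libraries made 240 min (4 h) after release from a mitotic block, in late-G1, are compared here with and without the architectural protein CTCF. Both groups carried CTCF tagged with an auxin-inducible degron and mCherry, and both expressed the plant receptor OsTiR1 from a retrovirus that also encodes GFP. Cells of both groups were arrested in prometaphase with 200 ng/ml nocodazole, a drug that blocks spindle assembly. The auxin group received auxin during the later part of the arrest and after release, which triggers destruction of the tagged CTCF. The control group was handled alike without auxin. Sorting kept cells with unreplicated DNA, mCherry positive for the control group and mCherry negative for the auxin group, so the sort gate and the auxin exposure cannot be told apart. The line is an uninduced model without active GATA1, and the compared groups differ in auxin itself as well as in CTCF. The control libraries are numbered 2 and 3 and the auxin libraries 1 and 2. Groups follow the sample titles. In the study's reporting form, the lists of tracks, peaks and depths name a replicate 1 without auxin where the list of read files, like the titles, has it with auxin, so its label carries that doubt. The form calls the replicates biological without saying how cultures were kept apart, and p-values measure the spread between these libraries.

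The members are all peaks of the 4 late-G1 lists, 359896 of the 1309572 peaks in the 18 PolII lists of the series. Peaks that overlapped by at least 1 bp were merged, which gave 135930 late-G1 regions, against 169903 when all 18 lists are merged. Detection of a region in a library means that at least 1 peak of that list touched it. Within each list, regions were ranked by fold enrichment over local background, with rank 1 for the strongest, and the rank change is the mean of −log2 rank with auxin minus that without it. A positive change therefore means a place nearer the top of the list with auxin, and a change of 1 stands for a rank number divided by 2.

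CTCF binds a conserved DNA element through its zinc fingers and stops the ring-shaped cohesin complex as it extrudes chromatin, which sets the bases of loops and the borders of contact domains. Promoters and enhancers within such a domain meet more often than those in different domains. During mitosis PolII leaves most of the genome, and it returns to promoters as cells enter G1. At an active gene it is dense near the transcription start site (TSS), where it pauses, and thinner over the gene body.

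CTCF recognises a long element whose centre can be searched for in the sequence of a region. A core consensus of 12 letters was searched on both strands within 250 bp of each region's highest summit, with at most 1 letter differing, an allowance made after an exact search had proved rare. A match was found in 6.56% of all merged late-G1 regions and near 6.66% of annotated protein-coding TSSs. The windows below belong to regions whose late-G1 rank differed between the groups, or that were detected in 1 group only, as described further on. They were picked among regions with a match. Many regions described there had none, among them Pabpc4, 1500003O03Rik/Exd1, Gys1/Ruvbl2, Hook2, Wdr85 and Bola3. The windows are given on mm9 (NCBIM37), 5′ to 3′ on the strand of the match, with the 12 matched letters in capitals. A match is a description of these letters and not a site at which binding was measured.

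Def8, intron of the overlapping gene Gm20388, chr8:125967117-125967146, minus strand: agcggagagCCAGCAGGCGGCagccgggag
Dhx30, intron, chr9:110003599-110003628, minus strand: tccccccggCCAGCAGAGGGCgtacggtaa
Region near Rab33b, intergenic, chr3:51314965-51314994, plus strand: aagctctcgCCACAAGAGGGCgctgagcca
Dtx3l/Parp9, intron of Parp9, chr16:35940047-35940076, minus strand: tccggggagCCTGCAGAGGGCagtattgct
Region near Ptma, intergenic, chr1:88400897-88400926, plus strand: tagctgggcCCGCTAGGGGGCctcctggtc
Amigo3/Gmppb, intron of the overlapping gene Rnf123, chr9:107955347-107955376, minus strand: ccagtgtggCCACCAGAGGGCcccagtgtc
Rapgef1, upstream of its TSS, chr2:29475150-29475179, plus strand: gactccaagCCGGTAGAGGGCgctgcgcct

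The windows at Dhx30 and Amigo3/Gmppb matched the consensus at every letter, and the others differed from it at 1. The Rapgef1 region held 3 matches, of which the one nearest the summit is shown.

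The control lists held 80106 and 117125 peaks and the auxin lists 88511 and 74154. The auxin values lay on both sides of the smaller control list, and the log2 difference of −0.26 gave p = 0.667 in an exact two-sided permutation test, whose smallest possible value with 2 libraries against 2 is 0.33. Peaks covered 51.95 and 70.20 Mb without auxin and 47.27 and 42.09 Mb with it. Both control values were above both auxin values, a log2 difference of −0.44 (exact permutation p = 0.33, the smallest this design can give). Median peak width was 348 and 322 bp without auxin and 284 and 316 bp with it (exact permutation p = 0.33).

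The relative depth recovered from the lists followed the same order as the covered length. It was 9.73 and 13.3 reads per kb in control replicates 2 and 3 and 9.22 and 8.00 in auxin replicates 1 and 2. Uniquely mapped reads in the study's reporting form give another order, with both auxin libraries above control replicate 2. There too control replicate 3 is highest, and the entry of replicate 1 carries the label doubt. The part of depth in these differences was not tested. With equal numbers of peaks per list the control lists still covered more bases, with a log2 difference of −0.34. Control replicate 3 was the deepest library and had the longest list, and without it the difference in peak number turned to 0.016.

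**Figure D1:**
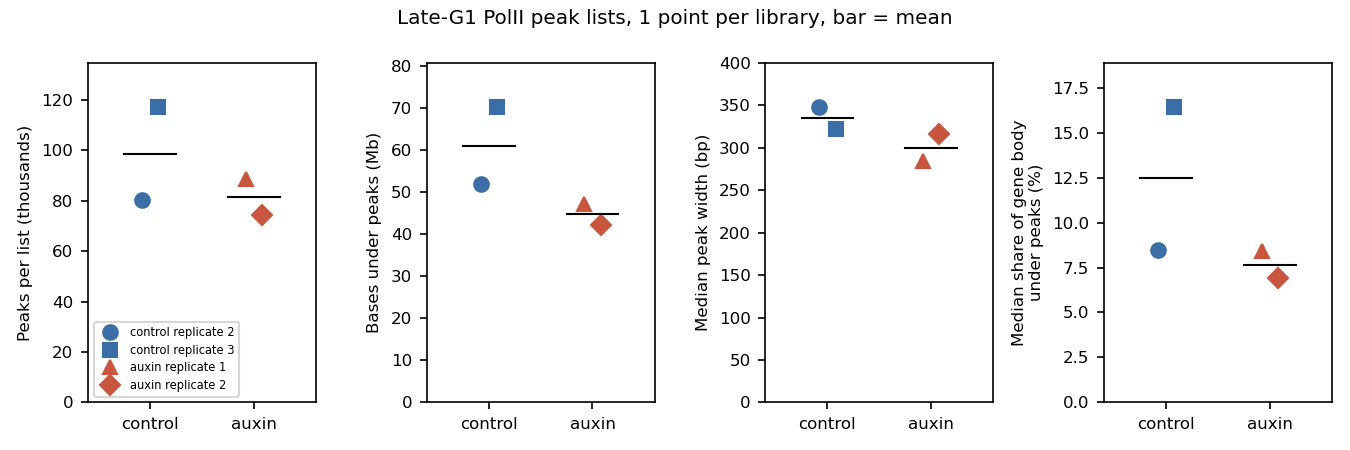
Number of peaks (in units of 1000), bases under peaks (Mb), median peak width (bp) and median share of the gene body under peaks (%) in each late-G1 library; points are libraries and bars are means of 2. Control replicate 3, the square, stands above the other 3 libraries in peak number, covered bases and gene body share, while both control libraries have wider peaks than both auxin libraries.

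PolII over gene bodies was read as the share of bases between 500 bp past the TSS and the gene end that lay under a peak, in the 7366 protein-coding genes over 1000 bp whose TSS had a peak in all 4 lists. The median share was 8.50% and 16.4% without auxin and 8.41% and 6.90% with it. The lower control value and the higher auxin value were almost level, and the difference of −4.81 percentage points (exact permutation p = 0.33) shrank to −0.84 without control replicate 3. Among all peaks, 10.6% and 7.88% of those without auxin and 9.75% and 11.5% of those with it overlapped a protein-coding TSS, and these values overlapped between the groups.

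Libraries of the same group were not clearly more alike than libraries of different groups. Shared bases over bases in either list (the Jaccard index) were 0.498 between the control lists and 0.546 between the auxin lists, and from 0.433 to 0.561 between lists of different groups. The highest of the 6 values joined control replicate 2 to auxin replicate 1. Mean same-group and different-group values were 0.522 and 0.497 (exact one-sided permutation p = 0.33, the smallest possible over 3 arrangements). Ranks showed the same layout, with a Pearson correlation of log2 rank of 0.870 between the control libraries, 0.920 between the auxin libraries, and 0.915 and 0.913 between control replicate 2 and the auxin libraries, across 28870 regions that are not independent replicates.

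Most late-G1 regions rested on 1 list. Of the 135930 regions, 72506 (53.3%) were detected in 1 of the 4 lists, 43887 of them in control replicate 3, and 28870 (21.2%) were detected in all 4. Regions in all 4 lists were wide and often promoters, with a median width of 1288 bp and a protein-coding TSS in 29.2%. Regions in 1 list had a median width of 215 bp and a protein-coding TSS in 0.592%.

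Detection in 1 group only was rarer. Both control lists and neither auxin list held 6995 regions (5.15%), and both auxin lists and neither control list held 1792 (1.32%). With the same number of peaks in every list these became 4455 and 2276, and leaving out 1 library at a time gave 10109 to 53085 and 3781 to 14112, so both counts turn on single libraries. Within protein-coding genes and away from a TSS lay 77.5% of the control-only and 78.1% of the auxin-only regions, beside 74.6% of all merged regions. In early-G1 and mid-G1, control-only regions were detected in 11% to 63.4% of cases in control lists and 28.3% to 56.5% in auxin lists. For auxin-only regions the values were 5.08% to 43.2% in control and 19% to 49.2% in auxin lists, and these ranges overlap. The core consensus was found in 7.23% of control-only and 6.08% of auxin-only regions, beside 6.56% of all regions.

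The strongest control-only region was a stretch of 3698 bp (chr2:28325307-28329004) with an intergenic summit 3604 bp from the TSS of Mrps2. This gene encodes a protein of the small mitochondrial ribosomal subunit. Peaks covered 29.1% and 53.3% of the Mrps2 gene body in the control lists and 0% in both auxin lists. The paper also shows Mrps2 as a locus with reduced PolII after CTCF depletion. The region ranked 8717 and 7424.5 in the control lists and had no late-G1 auxin peak. In the earlier stages it had a peak in all 5 control lists and in 1 of 5 auxin lists. An intronic region of Igsf8 (chr1:174239826-174240824) ranked 8917 and 11339 in the late-G1 control lists, and it was likewise found in 5 of 5 earlier control lists and in 0 of 5 earlier auxin lists. Regions in introns of D6Wsu163e and Sec1 completed the first 4, with late-G1 control ranks between 6214 and 10985. In the earlier stages both were found in 5 of 5 control lists, and in 2 of 5 auxin lists for D6Wsu163e and 3 of 5 for Sec1.

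Of the 1792 auxin-only regions 29 (1.62%) held a protein-coding TSS, beside 1.02% of control-only and 6.88% of all merged regions. Among the 29 were 2 of the 4 strongest auxin-only regions. At Rapgef1, which encodes an exchange factor for Rap GTPases, a peak of up to 452 bp stood 91 bp from the TSS (chr2:29474898-29475349) at ranks 7351 and 7512.5 with auxin. It was absent from both late-G1 control lists and, earlier, present in 5 of 5 auxin lists and 1 of 5 control lists. The Rasal1 promoter (chr5:121098754-121099042), of a Ras GTPase-activating protein, ranked 9483 and 11582.5 with auxin and had been found earlier in 5 of 5 auxin and 2 of 5 control lists. An intergenic region 316 bp from the TSS of Uchl3, a deubiquitinase gene, ranked 8089 and 7992 and was found in 5 of 5 earlier auxin lists and in 0 of 5 earlier control lists. A further intergenic region lay 6331 bp from the TSS of Rps3a and ranked 6201 and 4847, with peaks in 5 of 5 auxin and 2 of 5 control lists earlier. Absence from a list means that no peak passed the caller's threshold, not that PolII was absent.

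Ranks were compared over the 28870 regions present in all 4 lists. With limma's moderated test, which borrows the spread over all regions, 0 regions (0%) had a Benjamini-Hochberg adjusted p under 0.05. At an unadjusted p under 0.05 there were 605 lower (2.1%) and 1010 higher (3.5%) with auxin, a split that turned to 1555 lower and 271 higher when ranks were put on a normal score. Ranks of the 2 groups did not overlap at 4638 regions lower (16.1%) and 5381 higher (18.6%) with auxin. The 8416 regions with a protein-coding TSS behaved much alike, with 1443 lower (17.1%) and 1432 higher (17%) without overlap, and 199 (2.36%) and 222 (2.64%) at an unadjusted p under 0.05. When all 14 post-mitotic libraries shared the estimate of spread, 2 of 17490 regions were called lower and 5 higher in late-G1. Leaving out control replicate 2 raised the calls to 115 lower and 353 higher of 31561 regions, and leaving out control replicate 3 gave 2 and 6. Each of these 2 fits holds 1 control library, which is assumed to vary like the 2 auxin libraries, the source of all residual spread. Leaving out auxin replicate 1, whose label is in doubt, gave 0 calls in each direction, with 230 lower and 567 higher at an unadjusted p under 0.05. Control replicate 3 stood apart from the other libraries in rank, and the cause was not tested.

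Ctcf itself, the targeted gene, gives no check of the labels, because auxin acts on the protein. Its promoter region (chr8:108158782-108162314) ranked 8482.5 and 7546.5 without auxin and 7515 and 7337.5 with it. These values lay close together, with a rank change of 0.11 ± 0.41 (SE, limma adjusted p = 0.985).

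Regions that differ with auxin in earlier G1 can be read again in the late-G1 libraries. In the 10 early-G1 and mid-G1 libraries (1 and 2 h after release), limma called 43 regions lower (0.246%) and 43 higher (0.246%) with auxin, at an adjusted p under 0.05, among the 17490 regions present in all 14 post-mitotic lists. The fit used no late-G1 rank. The late-G1 lists did set the borders of the regions, and only regions detected in all of them could be called. Some called regions lie at the same locus, as near Pabpc4, Rdm1, Tsx and Tmem123, so the regions are not independent of each other. The study does not say whether the stages came from separate cultures. The calls depended on the scale, since a normal score of the rank gave 0 calls, and leaving out 1 library gave 28 to 148.

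In late-G1, 31 of the 43 regions lower earlier were lower again, beside 51% of all 17490 regions. The ranks of the late-G1 groups did not overlap at 24 of them in that direction, beside 18% of all, and 14 had an unadjusted p under 0.05, beside 2.28%. Their median late-G1 change was −0.53, against −1.62 in the earlier stages. Of the 43 regions higher earlier, 38 were higher again, beside 49% of all. At 30 the ranks did not overlap, beside 16.6%, and 20 had an unadjusted p under 0.05, beside 2.12%. Their median late-G1 change was 0.94, against 1.63 earlier. Under the alternatives of the late-G1 fit, 26 of 37 to 36 of 43 of the first set and 31 to 40 of 43 of the second kept their direction, and without control replicate 3 the counts were 34 and 40.

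**Figure D2:**
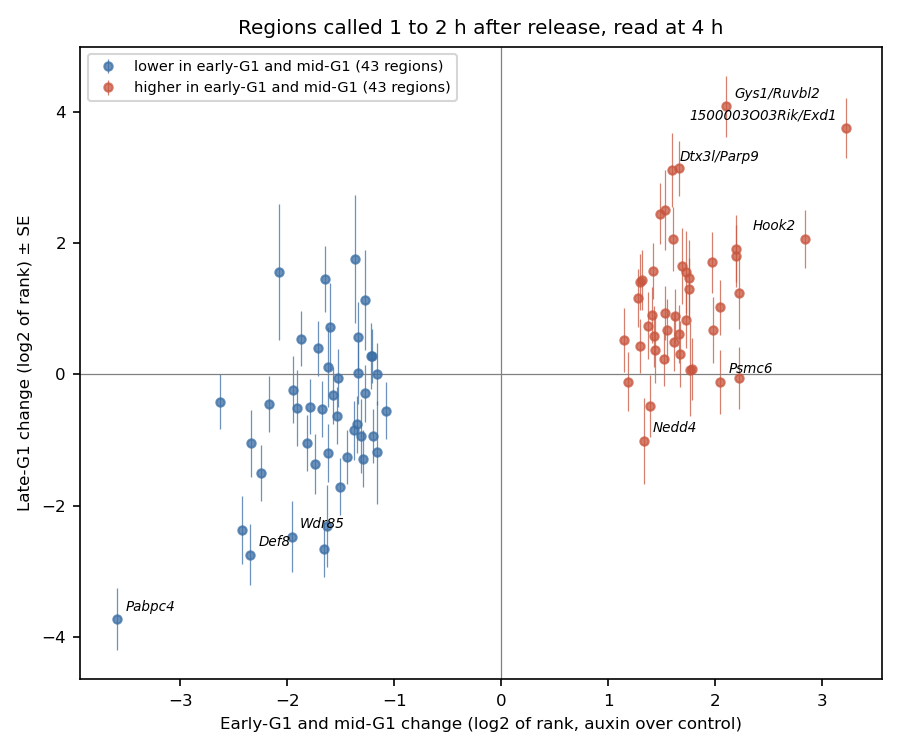
Rank change with auxin in early-G1 and mid-G1 (horizontal axis, log2 of rank) against that in late-G1 (vertical axis, log2 of rank, bars are SE) at the 86 regions called in the earlier stages; blue marks 43 lower and red 43 higher earlier. Of the blue points 31 lie below 0 and of the red points 38 lie above 0.

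The sets differed in what they contained. Of the 43 regions lower earlier 10 held a protein-coding TSS, as did 33 of the 43 higher, beside 43.8% of all 17490 regions. The core consensus was matched in 6 of 43 lower (13.95%) and 9 of 43 higher regions (20.9%), beside 7.36% of the 17490.

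Pabpc4, which encodes a cytoplasmic poly(A)-binding protein, held the region with the lowest late-G1 change (chr4:122959665-122960758, summit 19 bp from the TSS, in an intron). It ranked 520 and 301 without auxin and 6616 and 4145.5 with it. The groups were far apart, with fold enrichments of 41.8 and 60.5 without auxin and 15.9 and 19.7 with it, and a rank change of −3.73 ± 0.48 (SE, limma adjusted p = 0.196). Control ranks had been 264 to 552 and auxin ranks 3686 to 7250 in the earlier stages. Its limma adjusted p was 0.0011 when the 14 libraries shared the spread and ranged from 0.0009 to 1.00 over 11 alternatives.

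Def8 (chr8:125966713-125967459, summit 137 bp from its TSS) ranked 4255 and 7745 without auxin and 37426 and 39500.5 with it. That put the auxin peaks at the weak end of their lists, with fold enrichments of 4.98 and 4.58, and a change of −2.74 ± 0.46 (limma adjusted p = 0.772). Wdr85, a diphthamide synthesis gene, ranked 739.5 and 274 without and 2102.5 and 2970 with auxin, a change of −2.47 ± 0.54. Bola3, needed for mitochondrial iron-sulphur proteins, ranked 2190 and 860 against 7515 and 6724.5, a change of −2.37 ± 0.52. Each of these 3 promoters kept its groups apart in late-G1, and none passed the adjusted test there.

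Rdm1, a RAD52-motif gene, was among the strongest peaks of every list and its ranks were 4 and 5 without auxin and 11.5 and 14 with it. The change of −1.50 ± 0.42 came beside fold enrichments that differed little, between 95.3 and 115. At Ccnd3, which encodes the G1 cyclin D3, ranks were 453.5 and 320 against 543 and 553.5, and the change of −0.53 ± 0.43 stood beside −1.68 measured earlier. The summit of this region of 10430 bp lay 6421 bp from the Ccnd3 TSS, in an untranslated exon of the neighbouring gene Bysl, so the rank is not that of the Ccnd3 promoter alone. Glb1l/Stk16 gave −0.55 ± 0.43. There the earlier stages went opposite ways, with −2.96 in early-G1 and 0.80 in mid-G1, where auxin ranks were 1665 to 2182 and control ranks 3026.5 to 3412.

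The 1500003O03Rik/Exd1 promoter (chr2:119372414-119373976, Exd1 acting in the piRNA pathway) ranked 5116.5 and 9032 without auxin and 483 and 528 with it. Both auxin libraries placed it far above both control libraries, with fold enrichments of 42.8 and 39.2 against 18.1 and 17.2, and a change of 3.75 ± 0.45 (limma adjusted p = 0.196). Earlier auxin ranks of 439 to 959 and control ranks of 4816 to 9000 were of the same size. Hook2, encoding a dynein adaptor, ranked 6636.5 and 6964.5 without and 2057 and 1284 with auxin, a change of 2.06 ± 0.44. Nomo1, a gene of the endoplasmic reticulum membrane, gave 1.80 ± 0.48, Tmcc2 1.65 ± 0.57, Mapk14/Slc26a8 1.24 ± 0.56 and Rwdd3 1.02 ± 0.42. Mapk14 encodes the stress kinase p38α. Amigo3/Gmppb, one of the regions with an exact consensus match, gave 2.51 ± 0.61.

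At Ddx20 and Psmc6 the ranks of the late-G1 groups overlapped, while the bases under peaks did not. Peaks covered 1122 and 1046 bp without auxin and 1838 and 2194 bp with it at Ddx20. At Psmc6 they covered 822 and 737 bp without auxin and 1395 and 1446 bp with it. Ddx20, of the survival motor neuron complex, ranked 1553.5 and 684.5 against 557 and 751.5, a change of 0.67 ± 0.51. Psmc6, a proteasome ATPase gene, ranked 2899.5 and 5032.5 without auxin and 3138 and 5422 with it, a change of −0.11 ± 0.49, where the earlier stages gave 2.04. Late-G1 differed from the earlier stages at Psmc6 at an unadjusted limma p of 0.00046. Across all 17490 regions, 1096 had an unadjusted p under 0.05 for that difference between stages and 0 (0%) passed at an adjusted p under 0.05, the smallest being 0.349 by limma, so no region was shown to respond differently in late-G1.

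**Figure D3:**
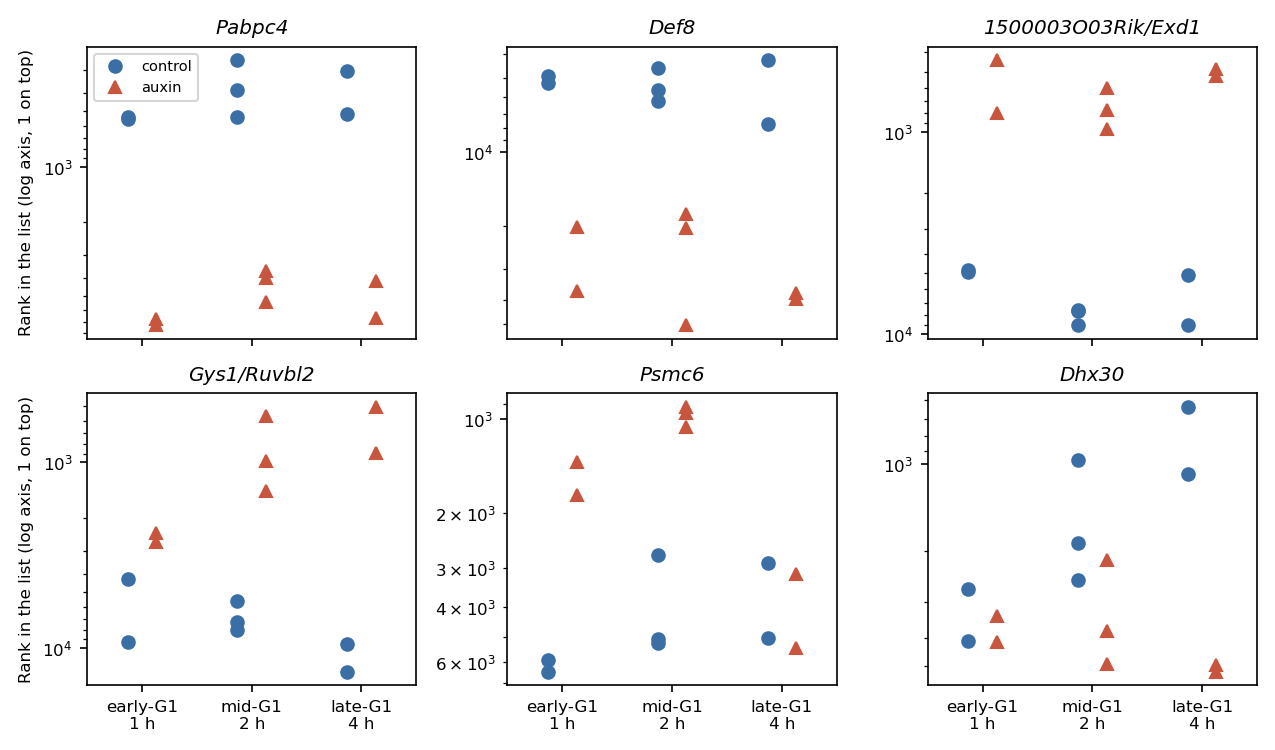
Rank of 6 promoter regions in the list of each post-mitotic library (vertical log axis, rank 1 on top) by stage, with circles for control and triangles for auxin libraries. The groups stay apart at Pabpc4, Def8, 1500003O03Rik/Exd1 and Gys1/Ruvbl2 in each stage, overlap at Psmc6 in late-G1, and at Dhx30 lie apart in late-G1 but overlap earlier.

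The 10 promoter regions per direction with the smallest late-G1 p and no overlap of ranks were chosen on these late-G1 values, so their changes describe them and are not a test. Lower with auxin, besides Pabpc4, Def8, Bola3 and Wdr85, were 6 regions. Dhx30, an RNA helicase of mitochondrial ribosome assembly (chr9:110002899-110003860), ranked 1081 and 633.5 without and 5241 and 4954.5 with auxin, a change of −2.62 ± 0.45. Its earlier change was −0.60. Eral1, a GTPase gene of the same process, ranked 713 and 661 against 2416 and 2842.5, a change of −1.93 ± 0.41 beside 0.052 earlier. Tmem179b gave −2.07 ± 0.42 with ranks of 385 and 365 against 1386.5 and 1779.5, and 0.25 earlier.

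Zpbp, a sperm acrosome gene, ranked 1298 and 848 against 4272 and 4113 (−1.998 ± 0.434), and Mat2b, a regulatory subunit of methionine adenosyltransferase, ranked 739.5 and 462 against 2633 and 1812 (−1.90 ± 0.46). Their earlier changes were 0.20 and −0.29. Cbr1, a carbonyl reductase gene, ranked 13917 and 12686 against 37426 and 48133.5, and it was missing from some earlier lists. Dhx30, Tmem179b, Eral1, Zpbp and Mat2b thus had earlier changes between −0.60 and 0.25, and the difference between stages did not pass the adjusted test at any of them. Covered bases did not always follow the rank. Zpbp had 1483 and 1576 bp under peaks without auxin and 2323 and 2109 bp with it, and Dhx30 691 and 600 against 795 and 962 bp. Both auxin libraries covered fewer bases than both control libraries at Def8, Bola3 and Cbr1, and the groups overlapped at the other regions listed as lower.

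Higher with auxin, the region with the largest change over 2 promoters was Gys1/Ruvbl2 (chr7:52685481-52691601), with its summit 19 bp from the TSS of Gys1 and in an untranslated exon of Ruvbl2. Gys1 encodes the muscle form of glycogen synthase and Ruvbl2 an ATPase of chromatin remodelling complexes. The region ranked 13426.5 and 9568 without auxin and 503 and 893 with it, and fold enrichment was 8.58 and 16.2 against 42.3 and 33.7. Its change of 4.08 ± 0.47 (limma adjusted p = 0.196) stood beside 1.31 in early-G1 and 2.89 in mid-G1. PolII signal has no strand here, so the region cannot be assigned to either gene.

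Dtx3l/Parp9, a promoter shared by a ubiquitin ligase and its ADP-ribosyltransferase partner, ranked 1928 and 5980 without and 358.5 and 428 with auxin, a change of 3.12 ± 0.57. Midn ranked 1953.5 and 4007 against 456.5 and 467 (2.599 ± 0.477), and Tmem188 7840.5 and 10591 against 2202 and 1264 (2.45 ± 0.46). B230219D22Rik gave 2.43 ± 0.46. Rfc3, a subunit of the replication clamp loader, ranked 5003 and 3743.5 against 1493.5 and 720 (2.06 ± 0.49), and Arl2, which acts in tubulin folding, gave 1.97 ± 0.43. Acyp1, an acylphosphatase gene, lay near the weak end of the lists, at ranks of 44741.5 and 53624.5 without and 12437.5 and 15264 with auxin.

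**Figure D4:**
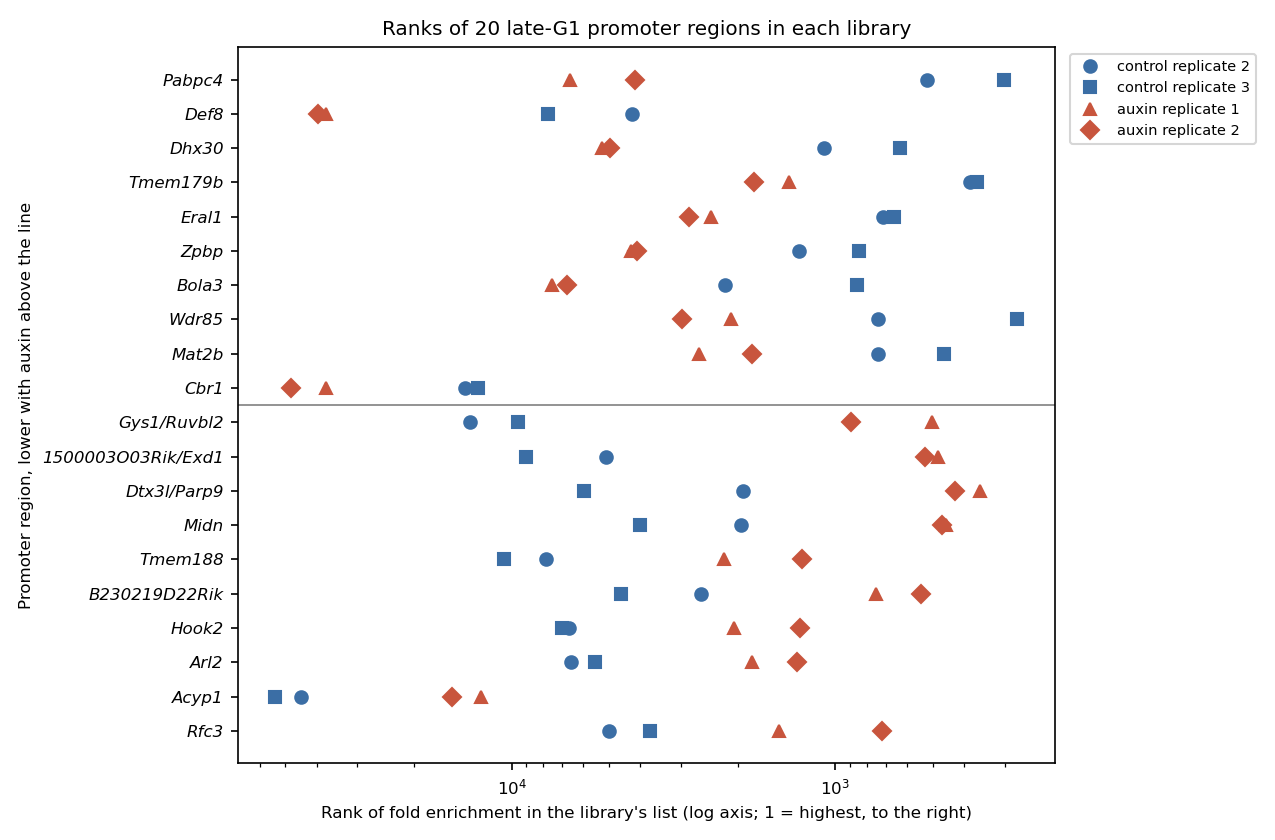
Rank of 20 promoter regions in each late-G1 library (horizontal log axis, rank 1 to the right), the 10 lower with auxin above the grey line and the 10 higher below it. The regions were chosen because blue control and red auxin points do not overlap.

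Away from annotated TSSs the same rule gave 3 regions per direction. An intergenic region 27208 bp from the TSS of Rab33b ranked 7070 and 5941 without and 37426 and 45088.5 with auxin, a change of −2.66 ± 0.42, beside −1.66 in the earlier stages. Regions 6694 bp from A430110L20Rik and 4264 bp from Pde4a, the TSS of a cAMP phosphodiesterase gene, gave −2.22 ± 0.44 and −2.53 ± 0.53.

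Higher with auxin was an intergenic region of 2904 bp (chr1:88399598-88402501), 22423 bp from the TSS of Ptma, the prothymosin gene. It ranked 3984 and 4215 without and 429 and 507 with auxin, a change of 3.14 ± 0.41 beside 1.66 earlier. A region 52090 bp from Extl3 ranked 10009 and 11782 against 1376.5 and 1077.5. Another lay 4887 bp from Rps3a (chr3:85949380-85951966), with ranks of 48510 and 31279 against 3589 and 4394.5, next to the auxin-only region named above. The auxin peaks there covered 2545 and 2522 bp, and the control peaks 182 and 1330 bp.

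Gene lists were read through the promoter region of each member, with list membership and rules chosen with earlier results of these data known. In the erythroid marker list all 8 genes had a promoter region in all 4 lists, Klf1 and Tfrc at ranks of 372.5 or better. All 4 progenitor markers were present too. None of the 6 myeloid and none of the 6 lymphoid markers had a peak at the TSS in any list, and of the megakaryocyte markers Gp1ba, Itga2b and Pf4 had one and Gp9 and Vwf had none. Some genes of broad expression, among them Pcna, Hspa5 and Rpl3, also had no peak over the TSS although peaks lay on both sides, so a missing region says little about the gene. The globin genes and Alas2 had no promoter region.

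No list had a member at an adjusted p under 0.05 by limma. Over all 8416 promoter regions the median change was −0.018. A normal score of the rank moved that median to −0.19, and with it 6 list medians from above to below 0, each still above −0.19: those of the CTCF and cohesin, heat shock, interferon, histone, splicing, and G1 cyclin, E2F and Myc lists. The aryl hydrocarbon receptor list had the highest median, at 1.00 over 8 regions, of which 7 were higher with auxin, 6 without overlap of ranks and 4 at an unadjusted p under 0.05, beside 17% and 2.64% of all promoter regions. The receptor is a ligand-activated transcription factor, and its classic targets Cyp1a1, Cyp1a2, Cyp1b1 and Ahrr had no peak at the TSS. The median therefore describes other members of the list and is no reading of the receptor. The 4 regions at an unadjusted p under 0.05 were at genes of antioxidant defence. Txnrd1, thioredoxin reductase, ranked 1598 and 3072.5 without and 436 and 700 with auxin (2.00 ± 0.49). Srxn1, sulfiredoxin, ranked 4320.5 and 4825 against 1906.5 and 1363 (1.502 ± 0.426). Nqo1, a quinone reductase, ranked 33566.5 and 12812 against 6773 and 7934.5 (1.5002 ± 0.528).

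Gclc, the catalytic subunit of the first enzyme of glutathione synthesis, ranked 2190 and 2386 against 902 and 1205 (1.13 ± 0.42). These changes kept both auxin libraries nearer the top than both control libraries. Hmox1 gave 0.86 ± 0.41 and Gclm 0.54 ± 0.45. In the earlier stages the changes were 0.13 at Txnrd1, 0.69 at Srxn1, 0.47 at Nqo1 and 0.15 at Gclc. The CTCF depletion and auxin exposure cannot be told apart in these libraries.

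Immediate early genes had a median of 0.61 over 14 regions, 13 of them higher with auxin, 5 without overlap and 1 at an unadjusted p under 0.05, beside the same 17% and 2.64%. Control replicate 3 ranked far below the other 3 libraries at several of them. Dusp1, a MAP kinase phosphatase gene, ranked 472 and 2825.5 without and 330.5 and 337 with auxin (1.79 ± 0.74), and the transcription factor gene Egr1 511.5 and 4256.5 against 491.5 and 421 (1.70 ± 0.83). Control replicate 2 was thus close to the auxin libraries at both genes. Btg2 ranked 142 and 1189.5 against 180 and 116, with overlapping groups. Heat shock and chaperone genes had a median of 0.43 over 21 regions, with 18 higher, 6 of them without overlap beside 17% of all promoter regions, and 1 lower without overlap beside 17.1%. Hsp90ab1 ranked 105.5 and 240 against 88 and 72.5.

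CTCF and cohesin genes had 19 regions with a median of 0.27, 8 of them higher and 2 lower without overlap, beside 17% and 17.1% of all promoter regions. Smc3, a ring subunit of cohesin, ranked 159 and 516 without and 127.5 and 134 with auxin (1.13 ± 0.57), and Stag1, a cohesin subunit, 1881 and 2078 against 1115.5 and 1137 (0.81 ± 0.41). Maz, a zinc finger factor, was lower, at 696.5 and 516 against 1464.5 and 1562 (−1.34 ± 0.42). Interferon-stimulated genes had a median of 0.20 over 15 regions, and Dtx3l/Parp9 gave the 1 change at an unadjusted p under 0.05. Replication-dependent histones, many of which share regions, had 24 regions for 47 genes and a median of 0.26. At an unadjusted p under 0.05, 3 were higher and 2 lower, beside 2.64% and 2.36% of all promoter regions. Hist1h4d ranked 36 and 64 against 13 and 17 (1.69 ± 0.46).

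Of the cell cycle lists, G1 cyclin, E2F and Myc genes (29 regions, median 0.089) and replication licensing genes (23 regions, −0.025) had 0 regions at an unadjusted p under 0.05. Mitotic genes (29 regions, −0.23) had 1 in each direction. Over all promoter regions the shares at that p were 2.36% lower and 2.64% higher. Ccna2, cyclin A2, ranked 3164.5 and 3419.5 without and 1694 and 1497.5 with auxin (1.05 ± 0.41), and Ccnb2, cyclin B2, ranked 8550.5 and 5325 against 10568 and 22737.5 (−1.20 ± 0.51). The p53 targets (17 regions) had a median of −0.053 and 0 such regions. Cdkn1a, the p21 inhibitor gene, ranked 309 and 1599 against 324 and 279.

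Most lists of protein and RNA production had medians below 0. Cytosolic ribosomal protein genes had a median of −0.16 over 72 regions, 19 lower and 6 higher without overlap and 5 lower and 2 higher at an unadjusted p under 0.05. Over all promoter regions the shares were 17.1% and 17% without overlap and 2.36% and 2.64% at that p. Rps19 ranked 145.5 and 154 without and 236 and 919.5 with auxin (−1.64 ± 0.62), and Rpl32 went the other way, at 315 and 2661 against 182 and 223.5 (2.18 ± 0.84). Mitochondrial ribosomal protein genes had a median of −0.25 over 68 regions, 47 lower and 21 higher. Of these, 15 and 5 were without overlap, beside the same 17.1% and 17%. At an unadjusted p under 0.05, 0 regions of this list were lower and 2 higher, beside 2.36% and 2.64%. PolII and Mediator genes (76 regions) had a median of −0.16, with 17 lower and 6 higher without overlap, beside 17.1% and 17%. At that p 1 was lower and 0 higher. For snoRNA host genes (14 regions) the median was −0.25, with 1 lower and 1 higher at that p. Splicing factor genes had a median of 0.027 over 47 regions, and 4 lower and 1 higher at an unadjusted p under 0.05. Hnrnpk ranked 609 and 433 without and 1464.5 and 1721 with auxin (−1.63 ± 0.43), and Hnrnpa3 ranked 2082.5 and 1171 against 4980.5 and 4638 (−1.62 ± 0.45).

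Erythroid and heme genes had 22 regions with a median of −0.099 and 0 at an unadjusted p under 0.05. Progenitor regulators had 11 regions with −0.28 and 1 lower at that p, beside 2.36% of all promoter regions. Lmo2, a bridging factor of the erythroid transcription complex, ranked 1689 and 860 without and 4449 and 3103 with auxin (−1.62 ± 0.49). Lyl1, of the same protein family as Tal1, ranked 191 and 89.5 against 214 and 406 (−1.17 ± 0.53), and Runx1 ranked 113.5 and 146.5 against 228.5 and 154 (−0.54 ± 0.44). Clustered protocadherin genes had no promoter region in any list.

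**Figure D5:**
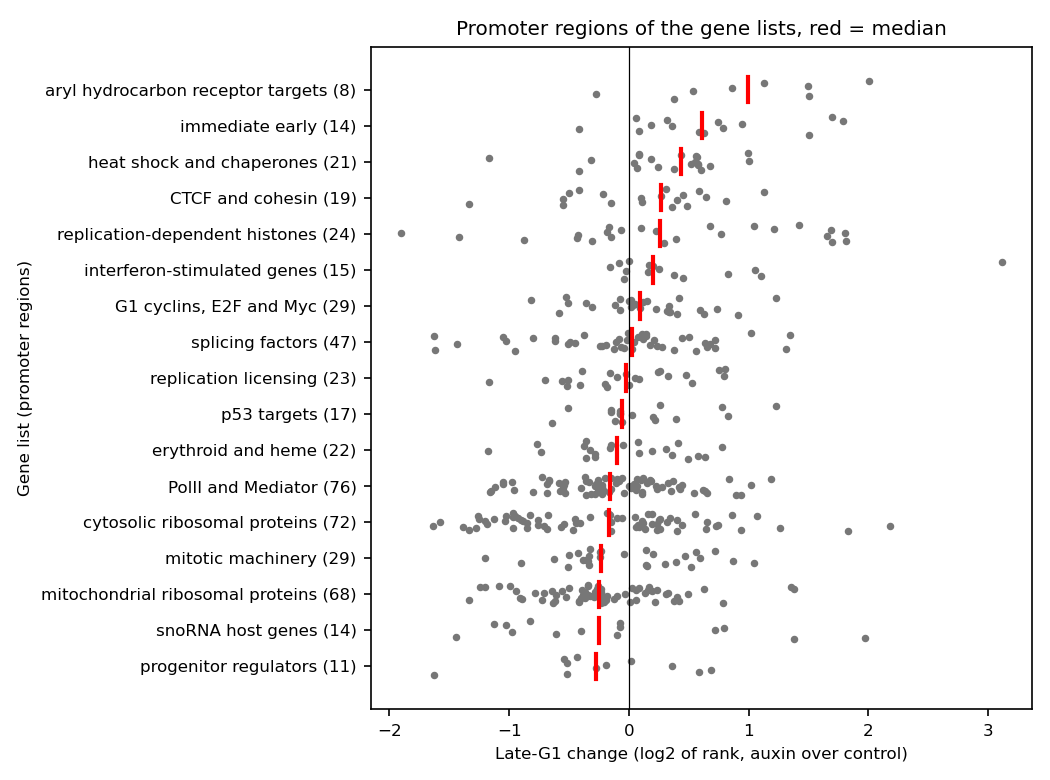
Late-G1 rank change (horizontal axis, log2 of rank, auxin over control) of each promoter region in 17 gene lists, with the number of regions in parentheses and the median in red. The aryl hydrocarbon receptor list, in which the classic targets had no region, lies furthest to the right at a median of 1.00. Progenitor regulators lie furthest to the left at −0.28, and scatter is wide in each list.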

How the data were processed

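The authors aligned reads to mm9 with Bowtie2 2.2.9, filtered them with SAMtools 0.1.19 and bedtools 2.27.1 (low mapping quality, duplicates, blacklisted intervals). Narrow peaks were called by the authors with MACS2 2.1.0 in each library against the input of its stage. Each deposited list gives a fold enrichment, which is a linear ratio, and the −log10 of the p-value and q-value of every peak. The authors left out 1 late-G1 replicate. Read counts per region were not used here, so ranks were compared, which hide any change shared by all regions. Relative depth was recovered by solving fold enrichment and p-value for the pileup, which was whole to within 0.05 for 100% of peaks. It gives an order of libraries only, which differs from that of the mapped reads in the reporting form.

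The rank test was limma 3.58.1 (R 4.3.3). Library values were compared by exact permutation tests in Python 3.11.15 with scipy 1.17.1. The limma step was tested on simulated data. Members, gene lists and rules were chosen with earlier results of these data known. Named are Ctcf, the 8 promoter regions per direction with the smallest p in early-G1 and mid-G1, 10 per direction in late-G1 without overlap of ranks, 3 per direction without a TSS, 4 detected in each group only, and up to 4 members per list by smallest p, of which 1 promoter region is not reported here; Hmox1, Gclm, Klf1, Tfrc and Amigo3/Gmppb were named after their values were seen. The annotation was GENCODE vM1. Alternatives were another ranking value, scaling, stricter peaks, shared spread, the replicate block and leaving out each library.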

Additional observations from a re-analysis of the deposited data

How the results depend on the processing

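The difference in covered bases, peak width and gene body share kept its sign under each alternative run. Leaving out 1 library gave peak number differences of −0.53 to 0.016 (log2), Jaccard differences of −0.013 to 0.099, 10109 to 53085 control-only and 3781 to 14112 auxin-only regions. It also gave 0 to 115 regions called lower and 0 to 353 called higher, 0 to 60 called for the difference between stages, and 28 to 148 called in early-G1 and mid-G1. In the late-G1 fits the lone library of a group is assumed to vary like the other group. The share of peaks at a TSS turned to −0.26 percentage points with equal numbers of peaks. Equal numbers gave 4455 control-only regions, merging over 18 lists gave 4535 control-only and 1175 auxin-only regions, and stricter peaks gave 1035 auxin-only regions. Calls in late-G1 were 2 lower and 3 higher with quantile-normalised fold enrichment, and 2 and 5 with the spread of 14 libraries. With the replicate block they were 1 lower and 4 higher by limma, with 0 for the difference between stages and 123 in the earlier stages. A normal score left 0 calls in early-G1 and mid-G1. The 2 late-G1 libraries numbered 2 deviated together with a correlation of 0.014, so the number was not read as a pairing.

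Directions that turned, none of them past the threshold, were at Ctcf (−0.16 with a normal score) and Psmc6 (0.69 with ranks by −log10 p, −0.51 to 0.29 leaving out 1 library). The causes were not tested. Gene list medians changed sign with a normal score in 6 lists: CTCF and cohesin (−0.084), G1 cyclins, E2F and Myc (−0.12), heat shock and chaperones (−0.018), histones (−0.044), interferon-stimulated genes (−0.10) and splicing factors (−0.18), where the median of all promoter regions also became −0.19. Depth limits which weak regions pass the caller's threshold, and 2 libraries per group limit the exact tests to p = 0.33.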

Other observations

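Of the 43 regions lower with auxin in early-G1 and mid-G1, 4 had late-G1 ranks that did not overlap and were higher with auxin, beside 16.6% of all 17490 regions. The largest change was at an intergenic region of 663 bp on the X chromosome, 78247 bp from the TSS of Tsx, which ranked 57848.5 and 80849 in the late-G1 control libraries and 37426 and 16685.5 in the auxin libraries. Its late-G1 change was 1.45 ± 0.51 (SE), against −1.64 in the earlier stages. Limma's unadjusted p for the difference between stages was 2.0e-05, with an adjusted p of 0.349. Its control ranks lay near the weak end of the lists. A neighbouring region also called lower earlier (chrX:100686690-100687397) gave −0.23 ± 0.51 in late-G1, with overlapping ranks. The other 3 of the 4 lay near Edem1, Fdxr and in an intron of 1810030N24Rik. Their late-G1 changes were 0.39 ± 0.41, 0.28 ± 0.41 and 0.54 ± 0.42 (SE) on the log2 rank scale, each within 1.5 times its SE. Each had an adjusted limma p of 0.700 for the difference between stages. None of the 43 regions higher earlier had non-overlapping late-G1 ranks in the opposite direction.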
